A study of Canis lupus familiaris with 10 samples.

Results

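The genes described here belong to the liver X receptor (LXR) pathway and to the lipid handling of macrophages, in canine cutaneous histiocytoma (CCH), a benign tumor of epidermal Langerhans cells that usually regresses. A list of 10 genes was matched by symbol against the 23266 genes of the table, and 9 were found: NR1H3, ABCA1, ABCG1, APOE, APOC1, LPL, MYLIP, GPNMB and CHI3L1. The tenth, TREM2, was not analysed here. All 9 had enough reads to pass the filter on low values, so that 9 of the 12397 genes tested are members. CHI3L1, APOC1 and NR1H3 were selected on their rise from early to late CCH in these same libraries, and their difference between stages is therefore given as a description, with no p-value and nothing read from whether they passed the threshold. For the other 6 members, the adjusted p-value over all genes tested is given.

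LXRα, the product of NR1H3, is a nuclear receptor that is activated by oxidized forms of cholesterol and binds DNA together with a retinoid X receptor. In macrophages that have taken up cell debris or lipoproteins, LXR turns on genes that move cholesterol out of the cell: the transporters ABCA1 and ABCG1, the acceptor proteins APOE and APOC1, and MYLIP, a ubiquitin ligase that limits the uptake of lipoproteins. GPNMB, a lysosomal membrane glycoprotein, CHI3L1, a secreted chitinase-like protein, and TREM2, a lipid-sensing receptor, are known as markers of macrophages loaded with lipid. LPL, which releases fatty acids from lipoproteins, is both an LXR target and a product of such cells.

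Expression was measured with QuantSeq 3′, which sequences 1 fragment near the polyadenylated end of each transcript, in formalin-fixed, paraffin-embedded (FFPE) tumors. The early group consisted of 5 tumors of group 1 of the Cockerell and Slauson staging, from dogs aged 0.5 to 5 years where an age was given (4 of 5). The late group consisted of 5 tumors of group 3, labeled as rich in lymphocytes, from dogs aged 1.5 to 9 years. The labels name no treatment, every tumor came from a different dog, and according to the methods of the study tissue beside the tumor was removed before RNA was isolated from sections. The samples were bulk tissue of tumor cells and infiltrating cells, in which fewer cells of a type and less RNA per cell cannot be told apart.

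The 10 libraries held between 2973125 and 4439709 reads assigned to genes, and 3 reads, the limit taken for a count of 0, came to 2.36 to 3.22 on the scale of the normalized read count. The share of RNA fragments longer than a set minimum length (DV200) averaged 68.5% ± 2.46 in early and 73.2% ± 2.09 in late samples (SD, n = 5 each). It ranged from 64.5% to 71.2% in early and from 71.2% to 75.8% in late samples. No late sample lay below an early one in DV200, and its part in the results was not tested. RNA extraction batches and sequencing index sets each held samples of a single stage, so that these and the stage cannot be told apart. Genes were called at an adjusted p of at most 0.05 from limma and a log2 fold change of at least 1 in size. Of 9 markers of Langerhans and dendritic cells tested, 2 were called lower in late CCH and 0 higher. Of all genes tested, 1.11% were called lower and 1.06% higher. The log2 fold change of these markers was below 0 for 6 and above 0 for 3. Their summed level overlapped (1134 to 2730 in early and 1253 to 2304 in late libraries), while CD207 was not analysed here. The summed level of 11 macrophage markers was 2854 to 14174 in early and 7672 to 13388 in late libraries. The highest sum of all 10 belonged to early library 2, which stood apart from the other early libraries (2854 to 6855). The summed level of 10 T cell markers was 76.2 to 2287 in early and 3387 to 5753 in late libraries.

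NR1H3 was low in every early tumor and higher in every late one. Its normalized read count was 16.2, 43.7, 20.8, 29.9 and 8.59 in early libraries 1 to 5, which together held 133 reads of the gene. In late libraries 1 to 5 it was 389.8, 139, 54.2, 494 and 232. The lowest late value, in library 3, lay just above the highest early value, in library 2, so that the groups did not overlap, and the values within late CCH spread 9.11-fold. The early mean was 23.8 ± 13.5 and the late mean 262 ± 180 (SD, n = 5 each), 11.0 times as high. On the log2(value + 1) scale the difference was 3.22 ± 0.57 (SE). NR1H3 moved from percentile 16.4 of all genes tested, ranked by mean level in early CCH, to percentile 81.0 in late CCH.

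**Figure D1:**
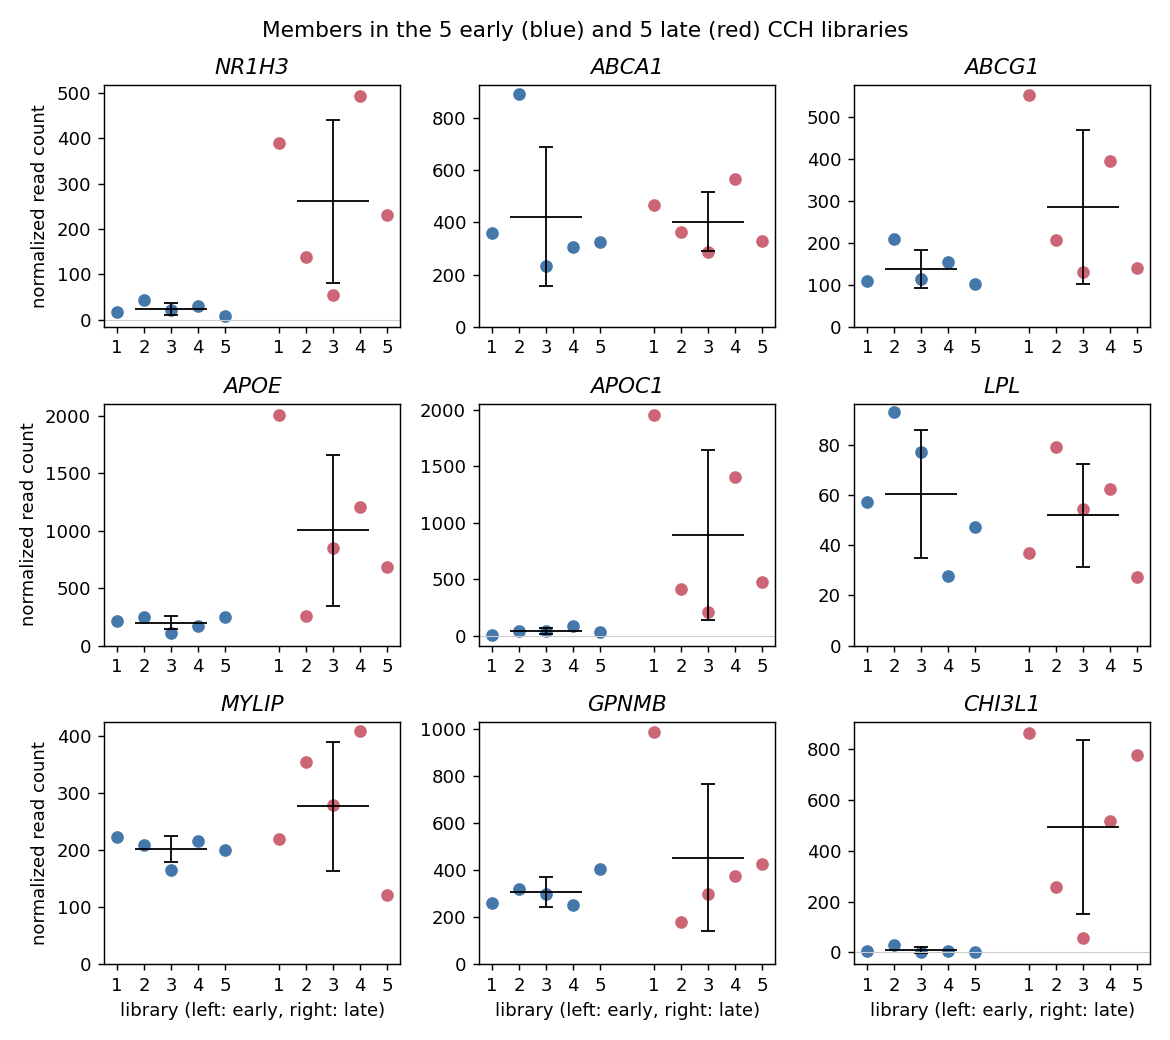
Normalized read count (vertical axis, linear, each panel with its own scale) of the 9 members in early libraries 1 to 5 (blue) and late libraries 1 to 5 (red), with the stage mean (line) and SD (error bar, n = 5). All late points lie above all early points for NR1H3, APOC1, APOE and CHI3L1, while ABCA1, LPL, GPNMB and MYLIP overlap between the stages and early library 2 stands alone in ABCA1 at 889.

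Genes beside NR1H3 may share reads with it where their strand and orientation allow, because the counting extended genes by 2 kb at the downstream end. In the RefSeq annotation of UU_Cfam_GSD_1.0, a later dog assembly than that of the files, ACP2, which encodes a lysosomal acid phosphatase, and MADD, which encodes a regulator of Rab GTPases, lie within 2 kb of NR1H3. ACP2 had a mean of 30.1 in early and 98.2 in late CCH, with a log2 fold change (log2FC) of 1.72 ± 0.31 (SE) and an adjusted p of 0.0485 (limma). MADD had a mean of 46.5 in early and 103 in late CCH (log2FC 1.14 ± 0.31, adjusted p = 0.287). The difference of NR1H3, which was selected on its rise, was larger than that of either neighbor, and nothing is read from this. Neighbors were taken by distance only, without their strand or orientation, and whether reads were shared was not tested.

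The cholesterol transporters, which are the best-known LXR targets, did not follow NR1H3 as a pair. ABCA1, which loads cholesterol onto lipid-poor apolipoproteins, measured 359.9, 889, 232, 304 and 326 in early libraries 1 to 5. Its values in late libraries 1 to 5 were 466, 364, 286, 565 and 328. All late values of ABCA1 lay within the early range, which early library 2 widened. The log2FC was 0.057 ± 0.32 (SE) with a 95% confidence interval of -0.63 to 0.74 and an adjusted p of 1 (limma). Without early library 2 it was 0.37, and its sign turned in edgeR (-0.057) and DESeq2 (-0.069), so no direction can be given for ABCA1.

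ABCG1, which passes cholesterol to high-density lipoproteins, was highest in the late libraries in which NR1H3 was highest. It measured 109, 208, 115, 154 and 103 in early libraries 1 to 5 and 553, 207, 129.8, 396 and 141 in late libraries 1 to 5. Only late libraries 1 and 4 exceeded every early library, and the other 3 late values lay within the early range. The early mean was 138 ± 44.2 and the late mean 285 ± 184 (SD, n = 5 each). The log2FC of 0.86 ± 0.38 (SE) had a 95% confidence interval of 0.034 to 1.69, and the adjusted p over all genes tested was 1 (limma).

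APOC1, which encodes a small apolipoprotein made by macrophages and liver, had the second-largest difference of the members. Its normalized read count was 10.5, 44.7, 46.1, 85.1 and 34.4 in early libraries 1 to 5. In late libraries 1 to 5 it was 1959, 412, 206, 1405 and 472, all above the highest early value. The early mean was 44.1 ± 27.0 and the late mean 891 ± 755 (SD, n = 5 each), 20.2 times as high, with a log2FC of 4.10 ± 0.62 (SE). Late libraries 1 and 4, the highest in NR1H3 and ABCG1, were also the highest in APOC1.

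APOE encodes the apolipoprotein that carries cholesterol away from macrophages and lies beside APOC1 in the genome. Early libraries 1 to 5 had 211, 247, 110.4, 173 and 251, a narrow range. Late libraries 1 to 5 had 2014, 261, 851, 1207 and 687, so that late library 2 lay just above the highest early value and the groups did not overlap. The early mean was 199 ± 58.6 and the late mean 1004 ± 659 (SD, n = 5 each), 5.05 times as high. The log2FC was 2.10 ± 0.44 (SE, 95% confidence interval 1.14 to 3.06), and the adjusted p of 0.0887 (limma) missed the threshold of 0.05. Late library 2 decided this, since APOE passed without it, at a log2FC of 2.51. TOMM40, which lies within 2 kb of APOE and encodes a mitochondrial import pore, had a log2FC of -0.56 and was not called. APOC1 and APOE did not lie within 2 kb of each other.

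For LPL and MYLIP, the difference between the stages was within the spread of the libraries. LPL ranged from 27.6 to 93.0 in early and from 27.3 to 79.0 in late libraries, with a log2FC of -0.19 ± 0.37 (SE, 95% confidence interval -0.99 to 0.61, adjusted p = 1, limma). MYLIP was the most even member in early CCH, at 223, 208, 165, 216 and 199.7. In late libraries 1 to 5 it was 219, 354, 279, 409 and 122, so that 3 late libraries lay above and 1 lay below all early ones. The log2FC of MYLIP was 0.34 ± 0.28 (SE, 95% confidence interval -0.26 to 0.94, adjusted p = 1, limma).

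Of the 2 markers of lipid-laden macrophages measured, CHI3L1 had the largest difference of any member and GPNMB differed little. CHI3L1 was nearly silent in early CCH, at 7.62, 27.9, 0, 4.73 and 1.07 in libraries 1 to 5, together 45 reads, and the 0 in library 3 allows a value of up to 2.71. In late libraries 1 to 5 it reached 862, 256, 55.2, 516 and 776, together 2438 reads. The groups did not overlap, and the lowest late value was again that of library 3. The early mean was 8.27 ± 11.4 and the late mean 493 ± 341 (SD, n = 5 each). The log2FC was 6.13 ± 0.91 (SE) with a pseudocount of 1 and 5.09 with a pseudocount of 5, since the early values lie near the limit of a few reads. GPNMB measured 259, 320.1, 300.3, 251 and 407 in early libraries 1 to 5 and 986, 181, 298, 374 and 427 in late libraries 1 to 5. Late library 1 was far above the rest and late library 2 was below every early one. The log2FC of GPNMB was 0.35 ± 0.35 (SE, 95% confidence interval -0.41 to 1.11, adjusted p = 1, limma), and 0.0092 without late library 1.

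A gene was called at a threshold of 0.05 on the adjusted p and a size of at least 1 of its log2FC. By that rule 3 of the 9 members, NR1H3, APOC1 and CHI3L1, were called higher and 0 lower, where 1.06% of all genes tested were called higher and 1.11% lower. Those 3 are the genes selected on this difference, so nothing is read from their count. Of the other 6 members, 0 were called, and 2 (APOE and ABCG1) had an unadjusted p under 0.05 from limma, a share near the 30.9% of all genes tested. In 4 of the 9 members (NR1H3, APOC1, APOE and CHI3L1) every late value exceeded every early value, which 5.91% of all genes did, and in 0 members every late value was below, which 6.05% of all genes did. Of the 6 members not selected on their rise, APOE alone had groups that did not overlap. The median log2FC of these 6 members was 0.34, against -0.0037 over all genes tested.

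When each library was left out in turn, the number of all genes called fell from 269 to between 49 and 260. The direction of the 4 members without overlap could not change in these fits, because every late value exceeded every early one. The log2FC was 2.90 to 3.69 for NR1H3, 3.67 to 4.51 for APOC1, 5.56 to 6.79 for CHI3L1 and 1.78 to 2.51 for APOE. NR1H3 passed the threshold in 2 of these 10 fits (without early library 2 or late library 3), and APOC1 and CHI3L1 in 4 (also without early library 3 or 4). Nothing is read from these passes, because the 3 genes were selected on this difference. No member passed without early library 1 or 5 or late library 1, 4 or 5, and APOE alone passed without late library 2. With all libraries, APOE also passed in DESeq2, which called 6.53% of all genes, and in limma with Benjamini-Hochberg (BH) adjustment, which called 9.04%, but not in edgeR, which called 1.43%.

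**Figure D2:**
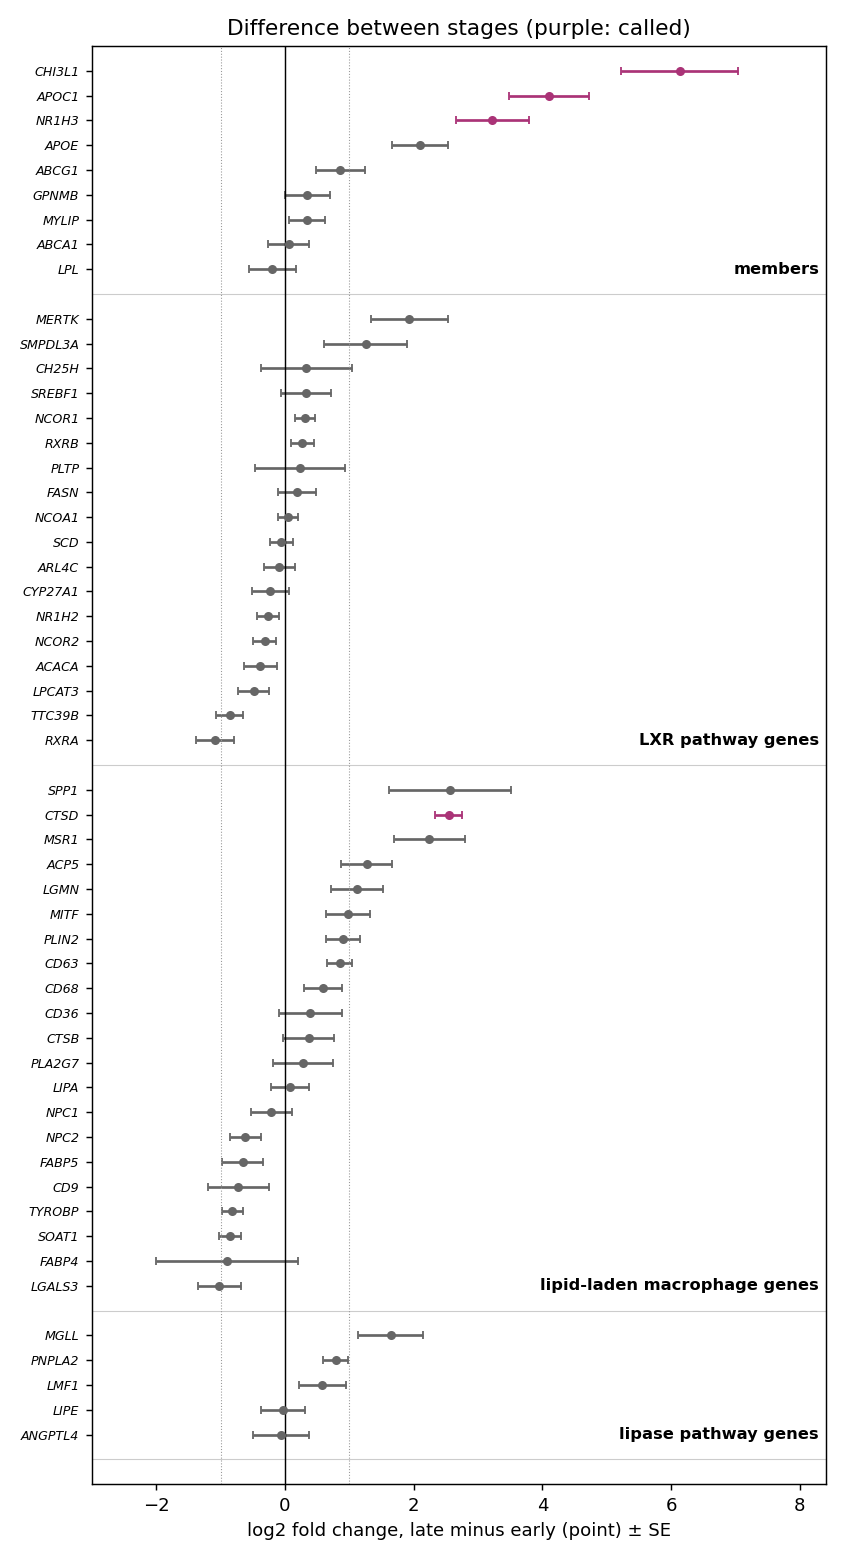
Late minus early log2 fold change (point) with its SE (bar) on the log2(value + 1) scale, for the 9 members and tested genes of 3 further lists (1 gene is not shown), each ordered by value; purple marks the called genes, and dotted lines mark a size of 1. The 3 called members, at 3.22 to 6.13, and CTSD, at 2.54, are the only genes plotted in purple, and the LXR pathway genes lie on both sides of 0.

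The spread within a stage differed from member to member. The SD of the log2 values was larger in late CCH for 6 of the 9 members, against 48.5% of all genes tested, and the median SD over all genes was 0.42 in early and 0.41 in late CCH. MYLIP went from an SD of 0.17 in early to 0.68 in late, GPNMB from 0.28 to 0.89 and APOE from 0.49 to 1.09. ABCA1 went the other way, from 0.73 to 0.39, and LPL and CHI3L1 were also less spread in late CCH. The difference between the SDs was not tested. Late library 1 had the highest late value of 5 members (APOC1, APOE, ABCG1, GPNMB and CHI3L1), and late library 3 had the lowest of 5 (NR1H3, APOC1, ABCA1, ABCG1 and CHI3L1). In early CCH, library 2 had the highest value of 5 members (NR1H3, ABCA1, ABCG1, LPL and CHI3L1).

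Whether the other members moved with NR1H3 among tumors of the same stage does not depend on the difference by which members were selected. Log2 values were centered on the mean of their stage, and Pearson's r was tested two-sided with an exact permutation test over the 14400 pairings that exchange libraries within a stage, for 8 relations. ABCG1 had the highest coefficient, r = 0.81 (Spearman's rho 0.83), with an exact p of 0.0160 and an adjusted p of 0.0631, and 9 of the 10 libraries deviated in the same direction for both genes. CHI3L1 followed NR1H3 with r = 0.75 (rho 0.72, exact p = 0.0160, adjusted p = 0.0631, 9 of 10 libraries). APOC1 had r = 0.76 (rho 0.71, exact p = 0.0237, adjusted p = 0.0631, 8 of 10 libraries). None of the 8 relations passed an adjusted p of 0.05.

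The order of these coefficients was not that of the differences between stages. ABCA1, with a log2FC of 0.057, had r = 0.63 with NR1H3 within stages (rho 0.60, exact p = 0.0392, adjusted p = 0.0785, 8 of 10 libraries). APOE, with a 5.05-fold difference of means, had r = 0.34 (rho 0.42, exact p = 0.457, adjusted p = 0.609, 5 of 10 libraries). The coefficients of GPNMB, MYLIP and LPL were 0.36, 0.0061 and -0.040, with exact p-values of 0.438, 0.990 and 0.915 and adjusted p-values of 0.609, 0.990 and 0.990 over permutations.

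The coefficients changed with the libraries left out. Without late libraries 4 and 1, whose NR1H3 level was farthest from the median, r was 0.77 for CHI3L1 (exact p = 0.0556), 0.70 for ABCG1 (exact p = 0.0917), 0.56 for APOC1 (exact p = 0.164) and 0.49 for ABCA1 (exact p = 0.238). That of APOE was then -0.23 (exact p = 0.663). On the scale centered by stage, late library 3 and early library 5 were farthest from the median, an alternative chosen after seeing the data. Without them r was 0.78 for ABCG1, 0.77 for APOC1, 0.77 for APOE, 0.66 for ABCA1 and 0.50 for CHI3L1, with permutation p-values adjusted over the 8 relations of 0.125 for the first 4 and 0.275 for CHI3L1. Without late library 3 alone r was 0.75 for ABCG1, 0.64 for APOC1 and 0.59 for CHI3L1 (adjusted permutation p = 0.239 for each). Early library 2, with the highest macrophage marker sum, deviated upward in NR1H3, ABCA1, ABCG1 and CHI3L1 together.

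**Figure D3:**
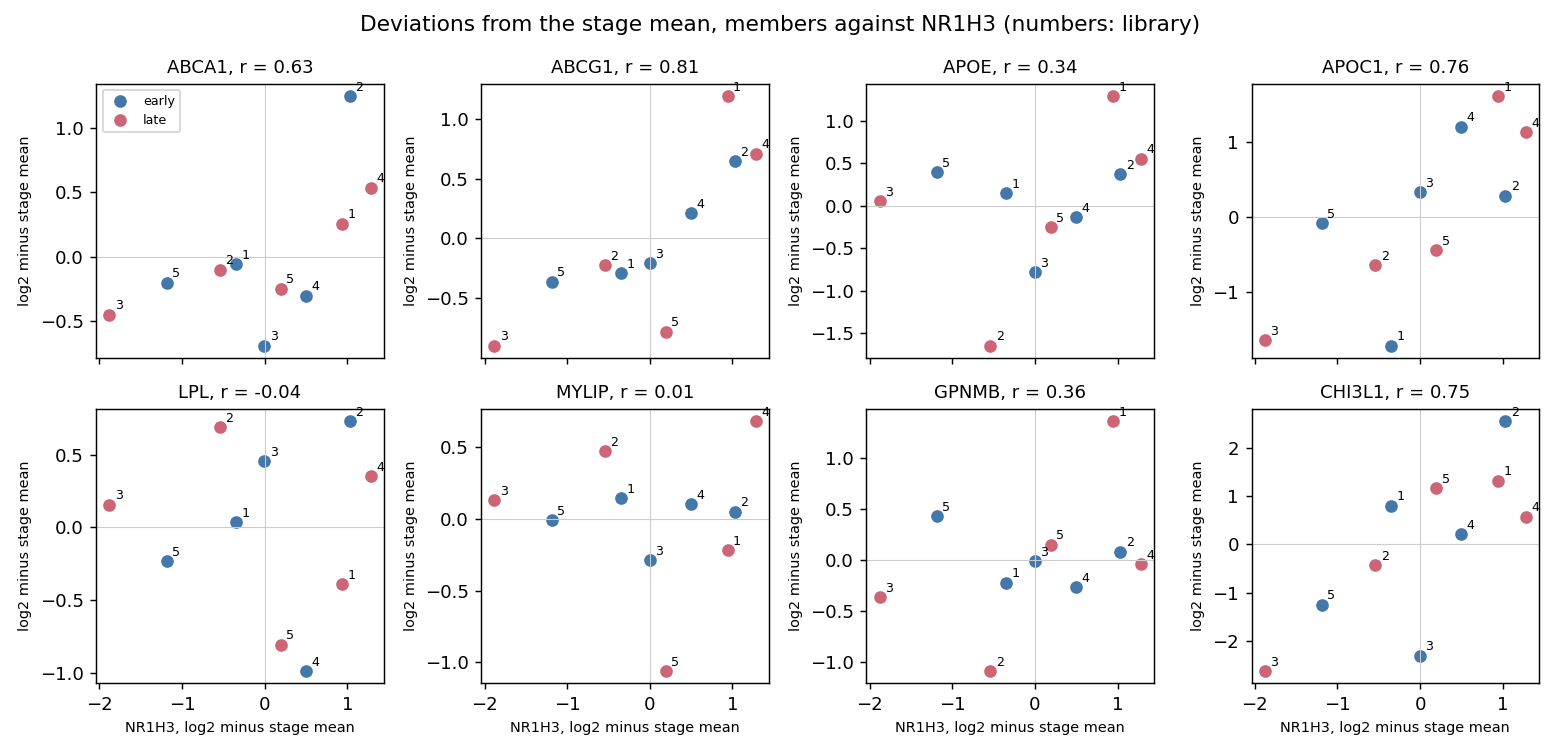
Deviation of each library from the mean of its stage on the log2(value + 1) scale, NR1H3 on the horizontal and 1 other member on the vertical axis of each panel (early blue, late red, numbers name the library within its stage). Points rise together for ABCG1, APOC1 and CHI3L1 (r of 0.75 to 0.81), while LPL and MYLIP show no slope (r of -0.040 and 0.0061).

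Genes tested were also ranked by how like a member they were in their deviations within stages over the 10 libraries. Members and symbols that start with LOC were left out of this ranking. Those most like NR1H3 were PHLDB1 (r = 0.94), HOOK1 (0.93) and YTHDF3 (0.93). For APOC1 they were TP53BP1 and CDKAL1 (0.94 each), among others, and for CHI3L1 they were FAM20A (0.95), CARHSP1 and RAB34 (0.94 each). These are the top values of the 12397 genes tested, less those left out, over 10 points, and are given as a description. Of the genes named, PHLDB1 (1.21) and FAM20A (1.39) had a log2FC above 1, and HOOK1 (-0.52) and RAB34 (-0.28) had one below 0.

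The members were also set against the summed level of the macrophage markers, which differed between the libraries. Early library 2 had a macrophage sum of 14174, above every late library, with an NR1H3 value of 43.7, an APOC1 value of 44.7 and a CHI3L1 value of 27.9, all below every late library. Per 1000 normalized reads of macrophage markers, NR1H3 was 1.25 to 10.5 in early and 6.83 to 46.2 in late CCH, and APOC1 had a median of 5.01 in early and 53.7 in late CCH. For both genes 4 of 5 late libraries exceeded every early one on this scale. CHI3L1 was 0 to 2.26 in early and 6.95 to 64.4 in late CCH, without overlap. APOE was 17.5 to 62.6 and 34.0 to 150, with 3 late libraries above every early one. The share of all genes that lay so on this scale was not computed. NR1H3, APOC1 and CHI3L1 were selected on their rise, so nothing is read from their counts or lack of overlap here.

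For each of the remaining members, 0 late libraries exceeded every early one on this scale. The macrophage sum itself had a median of 4447 in early and 10686 in late libraries. A gene whose own level did not change therefore lies lower in late CCH on this scale. Nothing is read from how many late libraries lay below every early one. ABCG1 had a median of 25.8 in early and 27.0 in late libraries per 1000 macrophage marker reads, with 1 late library below every early one. ABCA1 lay between 47.6 and 107 in early and between 26.0 and 52.9 in late CCH, with 4 late libraries below every early one. LPL had a median of 9.66 in early and 5.84 in late CCH, with 3 late libraries below every early one, and MYLIP had medians of 37.0 and 35.1, with 1 below. GPNMB lay between 22.6 and 88.0 in early and between 23.6 and 73.7 in late libraries, with 0 late libraries outside the early range. The T cell markers, whose summed level did not overlap between the stages, and the extraction batches moved with the same contrast. Their part in these differences was not tested.

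**Figure D4:**
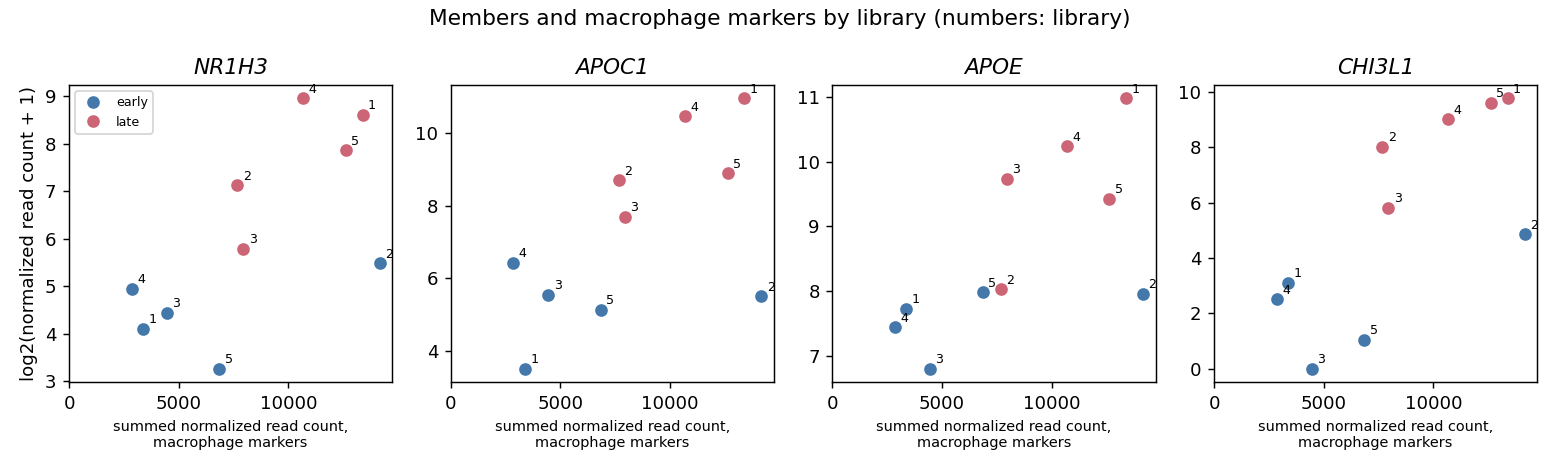
Log2(normalized read count + 1) of NR1H3, APOC1, APOE and CHI3L1 (vertical axes) against the summed normalized read count of 11 macrophage markers (horizontal axis, linear) in the 5 early (blue) and 5 late (red) libraries. Early library 2 has the highest marker sum, 14174, and lies below all late libraries in all 4 genes.

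The summed marker levels of other cell types overlapped between the stages, with the exception of the T cell list. Adipocyte markers, relevant to LPL, summed to 17.1 to 100 in early and 26.2 to 225 in late libraries. The sebaceous gland list summed to 121 to 1126 in early and 77.7 to 217 in late, the melanocyte list, relevant to GPNMB, to at most 3.15 and 13.6, and the cartilage list, relevant to CHI3L1, to 53.0 to 260 and 33.8 to 81.8, with COL9A1 at 0 in all libraries and COL2A1 not analysed here. Neutrophils also carry CHI3L1, and their markers summed to 222 to 9379 in early and 94.9 to 9002 in late libraries. Keratinocyte markers summed to 836 to 15083 and 629 to 7504, B cell markers to 480 to 736 and 604 to 3246, and endothelial markers to 375 to 891 and 566 to 1163. Overlap of a sum does not mean that each marker overlapped. Of 6 B cell markers tested, 3 lay higher in every late library, where 5.91% of all genes did. Of 2 cartilage markers tested, 1 lay higher and 1 lower in every late library. Of 6 keratinocyte markers tested, 1 lay lower, where 6.05% of all genes did.

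The other genes of the LXR pathway were called in neither direction. Of 23 listed genes, covering partner receptors, cofactors and targets, 19 were tested, and 0 were called higher or lower by limma with the Benjamini-Yekutieli (BY) adjustment. Without adjustment 4 of 19 had a p under 0.05, where 30.9% of all genes did. DESeq2 called 2 (6.53% of all genes), limma with BH adjustment called 3 (9.04% of all genes) and edgeR called 0 (1.43% of all genes). The log2FC was above 0 for 10 and below 0 for 9, with a median of 0.046. The highest was that of MERTK, a receptor for the uptake of dying cells and an LXR target, at 1.93 ± 0.60 (SE), with a mean of 15.4 in early and 51.0 in late CCH and an adjusted p of 0.477 (limma). The lowest was that of RXRA, the receptor that pairs with LXRα, at -1.09 ± 0.30 (SE), with a mean of 363 in early and 163 in late CCH and an adjusted p of 0.278 (limma). RXRA measured 237, 269.8, 244, 646 and 417 in early and 101, 156, 194, 139 and 223 in late libraries 1 to 5, without overlap. Of the 19 genes tested, 1 lay higher and 2 lay lower in every late library, where 5.91% and 6.05% of all genes did.

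Named after its values were seen, TTC39B, which promotes the degradation of LXR, lay lower in every late than in every early library (log2FC -0.86 ± 0.21, adjusted p = 0.187, limma). NR1H2, which encodes LXRβ, had a log2FC of -0.26 ± 0.17 (adjusted p = 1, limma). SREBF1, the LXR target that drives fatty acid synthesis, had one of 0.32 ± 0.39 (adjusted p = 1, limma). The sterol transporter gene ABCG8 was at 0 in every library, and ABCG5 was not analysed here.

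Of 22 further genes of lipid-laden macrophages, 21 were tested and 1 was called, CTSD, the lysosomal aspartic protease cathepsin D. CTSD measured 342, 472, 310.3, 332 and 380.0 in early libraries 1 to 5 and 2639, 2026, 1254, 2780.3 and 2297 in late libraries 1 to 5. Its mean rose from 367 ± 63.6 to 2199 ± 605 (SD, n = 5 each), with a log2FC of 2.54 ± 0.21 (SE) and an adjusted p of 0.00201 (limma). The log2FC was above 0 for 13 genes and below 0 for 8, with a median of 0.37, against -0.0037 over all genes. Of the 21 genes, 1 was called, where 1.06% of all genes were called higher, and 12 had an unadjusted p under 0.05, where 30.9% of all genes did. Without early library 2, 3 genes of this list were called in either direction, where 260 of the 12192 genes tested in that fit were called.

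The list held values on both sides of 0. SPP1, a secreted phosphoprotein of activated macrophages, had the highest log2FC, 2.57 ± 0.95 (SE), with an adjusted p of 0.846 (limma). Early library 2 had 1714 where the other early libraries had 36.2 to 105, and late libraries had 148 to 1933. LGALS3, a galactose-binding lectin, had the lowest, -1.02 ± 0.33 (SE, adjusted p = 0.562, limma). Named after their values were seen, MSR1, a scavenger receptor for modified lipoproteins, lay higher in every late library (log2FC 2.25 ± 0.55, adjusted p = 0.177, limma). SOAT1, which esterifies cholesterol for storage, lay lower in every late library (-0.85 ± 0.17, adjusted p = 0.0704, limma). So did TYROBP, the signaling adaptor of TREM2, with a mean of 3520 in early and 2003 in late CCH (-0.82 ± 0.17, adjusted p = 0.0805, limma). Of the 21 genes tested, 2 lay higher and 2 lay lower in every late library, where 5.91% and 6.05% of all genes did.

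Of 10 genes around lipases, which include the regulators of LPL, 5 were tested and 0 were called in either direction by limma with BY adjustment. Without adjustment 2 of 5 had a p under 0.05, where 30.9% of all genes did. BH adjustment called 1, where it called 9.04% of all genes, and edgeR and DESeq2 called 0. MGLL, which splits monoglycerides, had the highest log2FC, 1.64 ± 0.50 (SE, adjusted p = 0.447, limma). ANGPTL4, an inhibitor of LPL, had the lowest, -0.068 ± 0.43 (SE, adjusted p = 1, limma). PNPLA2, the first lipase of triglyceride breakdown and named after its values were seen, lay higher in every late library (0.79 ± 0.19, adjusted p = 0.168, limma). Of the 5 genes tested, 1 lay higher and 0 lay lower in every late library, where 5.91% and 6.05% of all genes did.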

How the data were processed

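According to the methods of the study, RNA was isolated from FFPE sections with a kit for such tissue, and QuantSeq 3′ reads were trimmed, aligned with STAR to CanFam3.1 and counted per gene with featureCounts, with genes extended downstream for unassigned reads. The deposited signal is a normalized read count, for which the authors divided the reads of each library by a size factor. All 166096 values above 0 in the 10 columns used gave whole reads within 0.01 read. A further 11 columns of values could not be assigned to any sample and were left out of every step. A column name shows the stage but not the sample, so libraries are numbered 1 to 5 only as names.

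Members and gene lists were chosen with earlier results of these data known. Genes had to reach 10 in no fewer than 5 libraries, which 12397 did. They were tested with the trend method of limma 3.58.1 (R 4.3.3) on log2(value + 1) without covariates, and p-values were adjusted with the BY procedure, which the study used. The log2 fold change is late minus early on this scale and understates the change of low genes. The study tested with DESeq2. Here, edgeR 4.0.16 and DESeq2 1.42.0 were run on the recovered reads as alternatives, since the deposited values are not raw counts. Named genes were all members, every called gene and the highest and lowest log2FC of each further list, and the 3 genes most like NR1H3, APOC1 and CHI3L1 within stages. Some genes of the lists are not reported here. Relations were adjusted with the BH procedure. The fits were tested on simulated counts. Genes were matched to RefSeq by symbol, and no sequence was printed. The p-values measure the spread between single tumors of different dogs, and intervals cover that spread. Reads carry no molecular identifiers, so limits from counts cover counting error only. Alternatives changed the pseudocount, filter, scaling, adjustment, moderation, test and libraries.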

Additional observations from a re-analysis of the deposited data

Results flagged for a closer look

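In 6 of 46 sets of 5 values of 1 stage, the highest library lay apart from the others by Dixon's criterion. For normally distributed values chance gives about 1 in 20, here 2.3. The values were counts and sums without log transformation, so 6 cannot be set against 2.3. ABCA1 was 889 in early library 2, with the next early library at 359.9. CHI3L1 was 27.9 in the same library, with the next at 7.62. The summed level of the LXR pathway list was 26245 there, with the next at 11262, of which SMPDL3A, a secreted phosphodiesterase and LXR target, made 20455. The B cell marker sum was 3246 in late library 3, with the next late library at 1140.1. The neutrophil marker sum was 9002 in late library 2, with the next at 1587. The cartilage marker sum was 259.8 in early library 5, with the next at 74.3, of which MATN3 made 251.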

How the results depend on the processing

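The number of members called, 3, fell to 1 with robust moderation, where the count over all genes was 268 against 269. It ranged from 0 to 3 when a library was left out (0 without early library 1 or 5 or late library 1, 4 or 5). In those fits the count over all genes fell from 269 to between 49 and 260. The log2FC was then 2.90 to 3.69 for NR1H3, 3.67 to 4.51 for APOC1 and 5.56 to 6.79 for CHI3L1. These 3 members were selected on their rise, so nothing is read from how often they were called. The count of LXR pathway genes called, 0, became 3 with BH adjustment and 2 with DESeq2. For the lipid-laden macrophage list, 1 became 3 with BH adjustment and 2 with DESeq2, and 1 to 3 when a library was left out (3 without early library 2). For the lipase list, 0 became 1 with BH adjustment. None of the 8 relations with NR1H3 passed, while 3 passed with a pseudocount of 5 and 0 to 1 passed when a library was left out (1 without early library 3 or late library 5). The log2FC of ABCA1, 0.057, turned to -0.057 in edgeR and -0.069 in DESeq2 and ranged from -0.11 to 0.37 when a library was left out. That of LPL, -0.19, ranged from -0.44 to 0.0081. Within stages, NR1H3 with LPL had a rho of 0.018 and an r of -0.26 to 0.096 when a library was left out, and NR1H3 with MYLIP a rho of -0.018 and an r of -0.33 to 0.12. The cause of these changes was not tested. Over all genes, 131 were called higher and 138 lower, and in both directions together 177 with edgeR, 810 with DESeq2 and 1121 with BH adjustment. With column total scaling, 64.0% of calls were higher against 48.7%. No paired analysis was possible because every tumor came from a different dog and no replicate number stands in the column names. With 5 libraries a group, an interval that includes 0 does not exclude a difference of any size within it. At a limit of 3 reads, the early values of CHI3L1 lay near the limit of depth.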
